A study of Mus musculus with 8 samples.

Results

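The accessible regions at the ends of ribosomal protein genes were followed through 8 ATAC-seq libraries of mouse embryoid body cells, as a set of genes that every cell needs and that might serve as a level reference. A region was taken where its midpoint lay within 1 kb (1000 bp) of either end of a protein-coding gene whose symbol is Rpl, Rps or Rplp followed by a digit, or Rpsa, with the Rps6k kinases left out. This gave 111 of the 168842 regions in the table, at 80 of 91 such genes. The rule uses none of the measured values, but the members were chosen with earlier results of these data known. For comparison, 17807 regions lie as near to an end of any protein-coding gene.

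ATAC-seq uses the Tn5 transposase to cut open chromatin, so the reads in a region measure how accessible the DNA is and not how much RNA or protein a gene makes. All libraries came from embryonic stem cells that were grown on fibroblast feeders, moved to feeder-free dishes and differentiated as embryoid bodies to day 4, and 50000 sorted live cells went into each. WT DP is PDGFRalpha+FLK1+ cells and WT SP is PDGFRalpha-FLK1+ cells of the wild-type A2lox.Cre line. The KO DP cells carry both receptors and come from a line with Etv2 knocked out; no treatment is listed for them or for the wild type. The OE SP cells are PDGFRalpha-FLK1+ and come from the line iETV2, whose extra Etv2, an ETS transcription factor of vessel and blood development, was switched on by 2 µg/ml doxycycline added at day 2.5. There are 2 libraries per group. The line goes with the genotype and, in OE SP, with the drug, so these cannot be told apart. Nothing in the labels tells if a group's 2 libraries were grown as separate cultures, so each p-value speaks of the spread between libraries alone, which may be technical.

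Ribosomal protein genes encode the proteins that, with ribosomal RNA, build the small and the large subunit of the ribosome. They are transcribed in nearly all cells, usually from short nucleosome-free promoters rich in GC, and their messages commonly begin with a run of pyrimidines that ties their translation to nutrient signals. Many mammalian copies elsewhere in the genome are processed pseudogenes or retrogenes without the introns of the parent gene, so short reads can be hard to place between them, and the sources used here do not state how such reads were treated.

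Grouped by gene symbol, 59 of the 111 regions lie at 42 large-subunit genes, 42 at 30 small-subunit genes, 4 at the 3 stalk genes and 4 at 4 paralogs. The other 2 lie at Rps19bp1, which fits the symbol rule but encodes a binding partner of Rps19. Rps23rg1, a retroposed copy of Rps23, stands in the small-subunit group by its symbol alone, and whether it encodes a subunit protein was not checked. At 52 genes there is 1 region, at 25 there are 2 and at 3 there are 3. A strand was found for 61 of the genes in the RefSeq promoter table for this build. By it 56 regions lie at the annotated start and 27 at the other end, in each case with the midpoint within 1 kb. A further 2, of Rpl18 and Rpl19, lie by the first boundary of a gene whose start in the promoter table is further in, and 26 belong to genes with no strand in that table. An end of another protein-coding gene lies within 1 kb of 26 of the regions, and in those the signal cannot be given to 1 gene. The 11 genes with no region include Rpl13a, Rps21 and the paralogs Rpl10l, Rpl39l, Rps27l and Rps27rt.

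The promoter sequences below are examples of open starts, those of outlying genes included. Each runs from 150 bases before to 30 bases after the RefSeq start in build mm10, 5′ to 3′ on the gene's strand, and lies inside its region. Capitals mark CGGAA or its reverse complement TTCCG, the core that ETS factors recognise, and the palindrome CTCGCGAG. Rpl37 and Rps19 are among the 5 highest lead regions, Rplp0 and Rpsa stand for the stalk and for a small-subunit protein also known as a laminin receptor, Rpl34 is among the 5 steadiest, and Rps6 and Rps23rg1 are the starts that changed in the knockout line. They were picked after their values had been seen. Rpl37 is shown at chr15:5116463-5116642 on the plus strand, Rps19 at chr7:24884442-24884621 on the plus strand, Rplp0 at chr5:115559317-115559496 on the plus strand, Rpsa at chr9:120127616-120127795 on the plus strand, Rpl34 at chr3:130730369-130730548 on the minus strand, Rps6 at chr4:86857338-86857517 on the minus strand and Rps23rg1 at chr8:3567848-3568027 on the plus strand.
Rpl37: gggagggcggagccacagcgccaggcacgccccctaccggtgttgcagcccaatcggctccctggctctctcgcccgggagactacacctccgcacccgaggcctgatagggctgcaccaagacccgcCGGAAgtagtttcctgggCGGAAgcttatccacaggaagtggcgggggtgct
Rps19: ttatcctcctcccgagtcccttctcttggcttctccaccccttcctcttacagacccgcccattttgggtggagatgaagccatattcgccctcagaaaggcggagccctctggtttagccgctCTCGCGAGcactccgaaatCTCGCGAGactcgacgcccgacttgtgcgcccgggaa
Rplp0: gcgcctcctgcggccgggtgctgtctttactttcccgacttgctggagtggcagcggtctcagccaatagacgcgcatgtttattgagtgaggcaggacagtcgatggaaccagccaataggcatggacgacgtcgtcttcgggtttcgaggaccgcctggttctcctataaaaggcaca
Rpsa: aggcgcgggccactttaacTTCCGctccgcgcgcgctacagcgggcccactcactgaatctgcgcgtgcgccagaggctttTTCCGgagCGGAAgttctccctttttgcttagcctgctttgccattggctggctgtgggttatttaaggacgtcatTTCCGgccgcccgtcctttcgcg
Rpl34: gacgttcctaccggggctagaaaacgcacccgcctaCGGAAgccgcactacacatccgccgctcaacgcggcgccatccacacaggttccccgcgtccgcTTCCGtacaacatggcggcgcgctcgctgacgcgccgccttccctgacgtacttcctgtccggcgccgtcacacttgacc
Rps6: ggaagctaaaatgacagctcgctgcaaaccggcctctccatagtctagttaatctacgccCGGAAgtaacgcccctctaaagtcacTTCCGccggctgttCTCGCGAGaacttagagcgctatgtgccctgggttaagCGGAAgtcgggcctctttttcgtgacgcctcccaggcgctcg
Rps23rg1: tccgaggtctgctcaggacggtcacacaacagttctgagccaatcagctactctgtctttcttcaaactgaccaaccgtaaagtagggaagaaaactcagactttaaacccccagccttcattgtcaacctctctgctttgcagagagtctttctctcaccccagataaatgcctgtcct

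In these stretches Rpsa holds 4 ETS cores, Rps6 holds 3 and 1 palindrome, Rpl37 and Rpl34 hold 2 each, Rps19 holds 2 palindromes and no core, and neither Rplp0 nor Rps23rg1 holds either motif. The GC share was 67.8% for Rpl37 and 66.7% for Rpl34 and lowest, 47.8%, for Rps23rg1. Over the whole promoter window of 300 bases, from 250 before the start to 50 after, CGGAA on either strand was found in 54 of 61 ribosomal protein genes (88.5%), against 49.7% of 12183 protein-coding genes with a region at their start. The longer form CCGGAAGT, which contains that core, was found in 18.0% against 7.74%. CTCGCGAG was found in 7 genes (11.5%) against 1.89%, and TCTTTC on the gene's strand within 20 bases of the start, a stretch of pyrimidines, in 11 genes (18.0%) against 1.56%. GGGCGG on either strand was no more frequent than in other genes (60.7% against 66.7%), and AAGATGGC (8.20% against 4.48%) and TATAAA (11.5% against 9.0%) were infrequent, each on either strand. These motifs were kept after their shares and those of further motifs had been looked at, so the shares are a description. Among the 55 genes with a region at the start, the 48 with an ETS core had a median log2 change of -0.09 for KO DP against WT DP and -0.04 for OE SP against WT SP, and the 7 without it 0.09 and -0.12. Those 7 include Rps23rg1 and Rpl13. In OE SP against WT SP the medians with and without TATAAA were 0.15 and -0.07, and for GGGCGG -0.04 and -0.04. No link between a motif and a change was tested.

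Values are normalized reads per region as deposited, and every region of the set is 401 bp wide, so levels of different genes can be set side by side. The mean over the 8 libraries ran from 48.2 to 1301 normalized reads with a median of 381, against a median of 230.0 for regions at any gene end and 36.0 for all regions. All 111 passed the filter used for the tests, a mean of at least 10, and 102 had a mean of at least 100. Starts were more open than other ends, with median means of 423 and 165. For each gene the region with the highest mean is called its lead region.

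Among the 5 highest lead regions were those of Rpl37, a zinc-binding large-subunit protein (chr15:5116262-5116662), Rps18 of the small-subunit head (chr17:33951113-33951513), Rps19, mutated in Diamond-Blackfan anaemia (chr7:24884242-24884642) and Rpl4, which lines the peptide exit tunnel (chr9:64179104-64179504). Their means were 1301, 1288, 1218 and 985 normalized reads. Rpl37 had 1312 and 1239 (WT DP), 1393 and 1373 (WT SP), 1254 and 1041 (KO DP) and 1342 and 1453 (OE SP). Rps19 had 1106 and 1162 (WT DP), 1437 and 1375 (WT SP), 1088 and 940.1 (KO DP) and 1133 and 1499 (OE SP). In both, OE SP overlapped with WT SP, and the second KO DP library was the lowest. By the table's strand the Rps18 and Rpl4 leads lie at the other end of the gene, within 1 kb of an end of B3galt4 and of Snapc5, and the Rpl37 lead lies within 1 kb of an end of Card6. The lowest lead regions, at 83.3 for Rpl34-ps1 and 87.8 for Rpl15, were about an order of magnitude below. Rpl34-ps1 bears a pseudogene-type symbol although the table lists it as protein-coding.

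The stalk proteins Rplp0, Rplp1 and Rplp2 form the flexible arm that brings elongation factors to the ribosome. Rplp0 (chr5:115559178-115559578) had 774 and 749 (WT DP), 881 and 855 (WT SP), 836 and 782 (KO DP) and 760.1 and 1217 (OE SP). Rplp1 had 498 and 513 (WT DP), 644 and 706 (WT SP), 473 and 467 (KO DP) and 479 and 614 (OE SP). Rplp2 had 511 and 549 (WT DP), 711 and 633 (WT SP), 532 and 461 (KO DP) and 518 and 733 (OE SP). In all 3 stalk leads WT SP lay above WT DP without overlap, as in 89.2% of the members and 40.5% of all regions tested. For Rplp0 and Rplp2 the second OE SP library was highest of the 8, as in 52.3% of the members and 25.3% of all regions. With limma none of the 4 stalk regions was called in any comparison. Of all regions tested, 14.3% were called between WT SP and WT DP. The shares were 3.92% for KO DP beside WT DP and 48.5% for OE SP beside WT SP.

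Among the large-subunit proteins, Rpl3, near the site of peptide bond formation, was the least even of the lead regions not called by limma in any comparison. Its lead region (chr15:80076767-80077167) lies outside the gene, 814 bp from 1 boundary, and the promoter table gives no strand for Rpl3. The region had 484 and 459 (WT DP), 723 and 670.1 (WT SP), 800.2 and 713 (KO DP) and 411 and 715 (OE SP). Both KO DP libraries and both WT SP libraries lay above both WT DP libraries, and the log2 change in KO DP against WT DP of 0.67 ± 0.21 did not pass (adjusted p = 0.104), although edgeR on recovered reads called it (adjusted p = 0.0287). Rpl5 and Rpl11, which with 5S ribosomal RNA bind Mdm2 when ribosome assembly is disturbed, had starts with means of 336 and 505 normalized reads. Rpl11 had 506 and 451 (WT DP), 580.1 and 565 (WT SP), 457 and 453 (KO DP) and 412 and 616 (OE SP) at its start. Rpl5 had 339 and 321 (WT DP), 396 and 371 (WT SP), 304 and 265 (KO DP) and 330.5 and 360.0 (OE SP) at its start, with KO DP below WT DP and OE SP below WT SP, neither called.

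For the small subunit, Rps3 sits where mRNA enters the ribosome, and Rps14 is a small-subunit protein whose loss underlies the anaemia of the 5q- syndrome. Rps3 had 366 and 395 (WT DP), 389 and 461 (WT SP), 442 and 392 (KO DP) and 413 and 569 (OE SP) at its start. Rps14 had 415 and 381 (WT DP), 520.1 and 484 (WT SP), 372 and 365 (KO DP) and 385 and 572 (OE SP). Rpsa had 577 and 506 (WT DP), 559 and 569 (WT SP), 437 and 446 (KO DP) and 433 and 628 (OE SP) at its start. The groups overlapped in all 3 comparisons for Rps3 only. None of these regions was called, beside the shares of all regions given above for the stalk.

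The X-linked genes Rpl10, Rps4x, Rpl36a and Rpl39 carry 5 of the regions. None of the 5 was called, beside the shares of all regions given above for the stalk. Rps4x, a small-subunit protein, was the lowest of their leads with 146 and 149 (WT DP), 222 and 183 (WT SP), 138 and 178 (KO DP) and 155 and 221 (OE SP). Rpl36a, a large-subunit protein, had 375 and 357 (WT DP), 416 and 381 (WT SP), 356 and 335 (KO DP) and 431 and 518 (OE SP). It was 1 of 3 members (2.7%) with both OE SP libraries above both WT SP libraries, against 26% of all regions tested. Rpl10, which joins the large subunit late in its assembly, and Rpl39, a small protein of the exit tunnel, had lead means of 583 and 362 normalized reads.

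The paralogs with a region were Rpl3l, a muscle form of Rpl3, Rpl22l1, Rpl7l1 and Rpl36al. Rpl3l had 713 and 719 (WT DP), 821 and 762 (WT SP), 799 and 758 (KO DP) and 569 and 980.1 (OE SP). That region lies at the other end of the gene, 3866 bp from its annotated start, and within 1 kb of an end of Msrb1. Rpl22l1 had 421 and 360.2 (WT DP), 471 and 404 (WT SP), 351 and 387 (KO DP) and 468 and 512 (OE SP). Rpl7l1 had 295 and 325 (WT DP), 384 and 353 (WT SP), 228 and 234 (KO DP) and 276 and 360.0 (OE SP). KO DP lay below WT DP without overlap at Rpl7l1, as in 37.8% of the members and 34.4% of all regions tested. With limma 0 of the 4 paralog regions were called in any comparison, beside the shares of all regions given above for the stalk. At an unadjusted p below 0.05 in limma there was 1 in KO DP against WT DP and none in the others.

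Before the comparisons, the libraries themselves need a word. Reads in regions ranged from 12477601 to 18853733 over the 7 libraries whose whole reads were recovered. The OE SP libraries differ from each other more than those of any other group: the second lay above the first in 105 of the 111 ribosomal protein regions, against 66.0% of all regions tested. The median absolute difference between the 2 libraries of a group over the 111 regions was 0.43 for OE SP (log2 scale), against 0.08 for WT DP, 0.08 for WT SP and 0.12 for KO DP. Several markers set out to check the labels moved with the groups. The summed value of 8 regions at 5 endothelial genes was 227 and 217 (WT DP), 456 and 468 (WT SP), 189.8 and 176 (KO DP) and 1730.3 and 2926 (OE SP). The blood list (5 regions at 3 of 5 genes) ran from 249.6 to 1420.3 in the same order, and the fibroblast and mesenchyme list (6 regions at 3 of 4 genes) from 565 to 965, lowest in OE SP. Not all markers did so: Runx1 of the blood list was lower in OE SP (13.9 and 28.9) than in WT SP (47.8 and 37.7), and the region of Pdgfra, the receptor that parts SP from DP in the sort, had 142 and 167 (WT DP), 163 and 149.7 (WT SP), 139 and 127 (KO DP) and 86.1 and 123.5 (OE SP), so the wild-type groups overlapped there. Gata1, Ptprc, Pou5f1, Col3a1 and Afp had no region at their ends, and the part of cell type in the changes below was not tested. Regions at the ends of Etv2 do not check the knockout, since the sources used here do not state which part was deleted.

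The set did not hold the same level in every library on the deposited scale. As the median log2 difference from each region's 8-library mean, it stood at -0.09 and -0.10 (WT DP), 0.20 and 0.15 (WT SP), -0.09 and -0.17 (KO DP), and -0.17 and 0.27 (OE SP). The highest and the lowest of these lie 0.44 apart, a 1.36-fold range, and both are OE SP libraries. The second OE SP library was the highest of the 8 in 58 of the regions (52.3%), against 25.3% of all regions tested. The first was the lowest in 38 (34.2%, against 30.2%) and the second KO DP library in 39 (35.1%, against 18.6%).

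**Figure D1:**
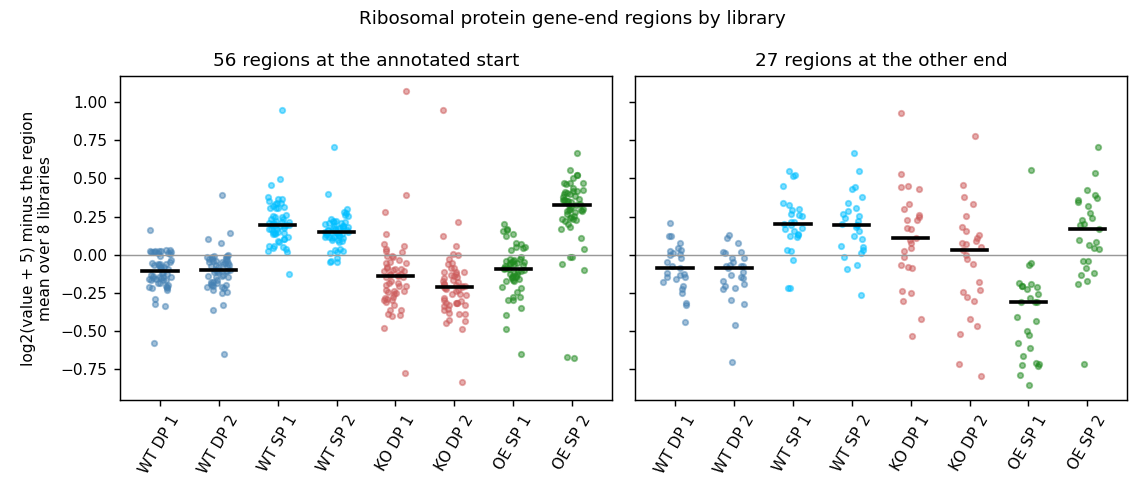
Each point is 1 ribosomal protein region, drawn as log2(value + 5) minus its mean over the 8 libraries, for the 56 regions at the annotated start (left) and the 27 at the other end (right); bars are medians, and colours are the groups. The OE SP libraries part from each other in both panels, and the medians at the other ends are lower than at the starts in OE SP and higher in KO DP.

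Those levels depended on the scaling. The range over libraries was 0.43 after rescaling by median-of-ratios factors, 0.23 after quantile normalization and 0.13 after rescaling on the 10000 regions of highest mean. With the last of these, no library lay further than 0.08 from the mean, and the WT SP libraries moved from 0.20 and 0.15 to -0.04 and 0.00. Gene-end regions of all genes ranged over 0.46 on the deposited scale and all regions over 0.29.

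**Figure D2:**
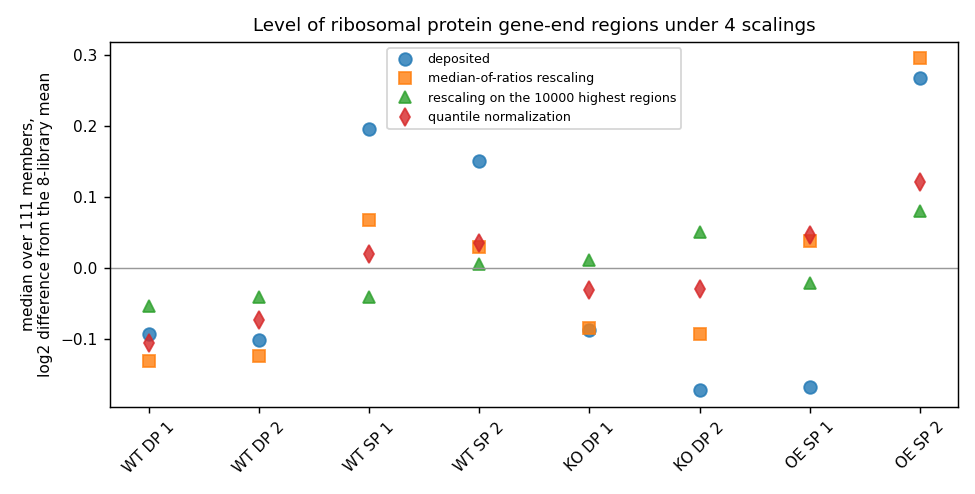
Points give the median over the 111 regions of the log2 difference from the 8-library mean for each library under 4 scalings. The range is 0.44 on the deposited scale, 0.43 with median-of-ratios factors, 0.23 with quantile normalization and 0.13 when the 10000 highest regions set the scale.

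The regions were steadier than most of the genome, and about as steady as other gene ends of similar height. The SD over the 8 libraries of log2(value + 5) had a median of 0.24, against 0.51 for all regions tested and 0.24 for the 12382 gene-end regions with a mean of at least 100, of which 47.4% had a higher SD than the median ribosomal protein region. The highest library was less than 2-fold above the lowest in 90 of the 111 (81.1%), against 82.9% of those gene-end regions and 23.1% of all regions. The median ratio of highest to lowest was 1.62, and it ran from 1.27 at Rpl9 to 3.43 at Rps23rg1. Between replicates of a group the median SD was 0.18, and between group means it was 0.20.

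Among lead regions with a mean of at least 100, the steadiest were Rpl9, Rpl34, Rpl10a, Rpl36 and Rpl30, all large-subunit proteins, with SDs of 0.13, 0.13, 0.14, 0.14 and 0.14. Rpl9 (chr5:65391310-65391710, also near an end of Lias) had 364 and 352 (WT DP), 448 and 426 (WT SP), 357 and 366 (KO DP) and 360.4 and 376 (OE SP). Rpl34 (chr3:130730222-130730622) had 515 and 556 (WT DP), 595 and 627 (WT SP), 589 and 544 (KO DP) and 532 and 685 (OE SP). Both WT SP libraries lay above both WT DP libraries in each of these 5 regions, so even the steadiest followed the shift of the set. The least even leads were Rps23rg1, Rps6 and Rpl3, with SDs of 0.74, 0.52 and 0.36.

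**Figure D3:**
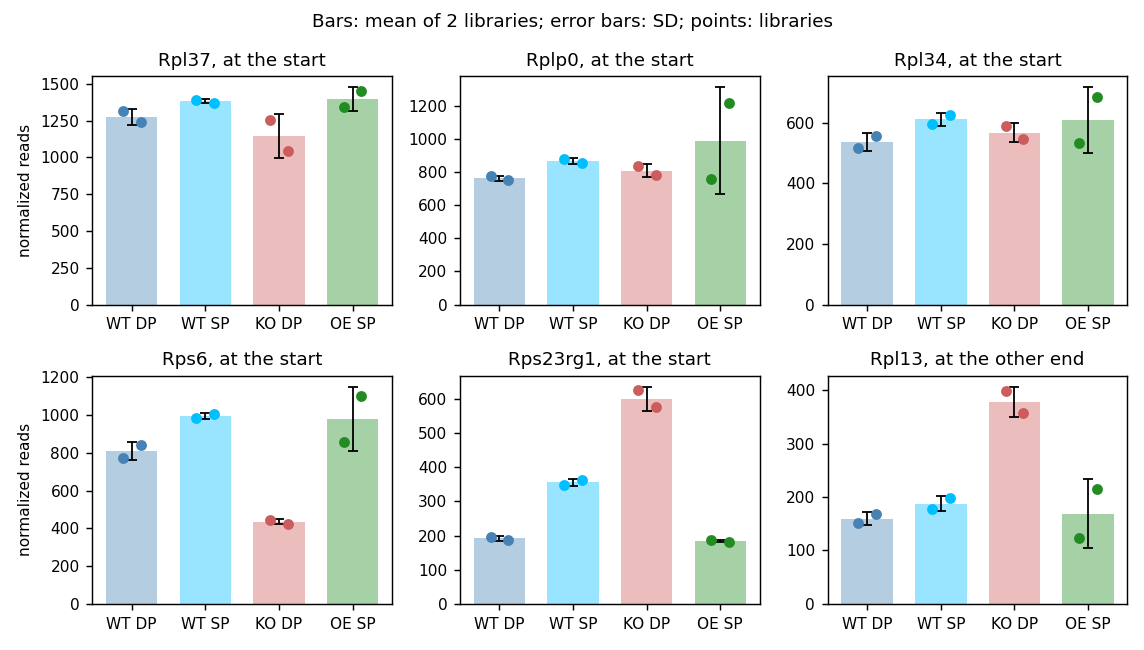
Normalized reads at 6 ribosomal protein regions; bars are means of the 2 libraries of a group, error bars SD, and points the libraries, on axes that start at 0. The panels of Rpl37, Rplp0 and Rpl34 show regions called in no comparison, of which Rplp0 is highest in the second OE SP library (1217). Rps6 is low in KO DP (443 and 425), and Rps23rg1 and the other end of Rpl13 are high in KO DP (626 and 575, 398 and 358).

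The first comparison asks how FLK1+ cells that lack PDGFRalpha differ from those that carry both receptors in the wild-type line. The ribosomal protein regions lay higher in WT SP as a group on the deposited scale: 108 of 111 had a positive log2 change, with a median of 0.27 (1.21-fold) against 0.22 at all gene ends and 0.11 over all regions. In 99 of them both WT SP libraries lay above both WT DP libraries and in 1 below, against 40.5% and 26.9% of all regions. With limma and Benjamini-Hochberg adjustment, 2 rose and 0 fell, while 14.3% of all 167573 regions tested were called (6.2% higher, 8.12% lower). At an unadjusted p below 0.05 there were 20 higher and 0 lower of the 111, beside 26384 higher and 23740 lower of the 167573. The median was 0.18 with median-of-ratios factors, 0.13 with quantile normalization and 0.03 on the 10000 highest regions. The set's median exceeded that of all gene ends by 0.05 on the deposited scale and by 0.05 to 0.06 under these 3 rescalings.

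The 2 regions that rose were those of Rps23rg1 and Rps16. Rps23rg1, a retroposed copy of the small-subunit gene Rps23 (chr8:3567670-3568070, at its annotated start), had 196 and 187 (WT DP), 348 and 364 (WT SP), 626 and 575 (KO DP) and 187 and 183 (OE SP). The groups stand in 3 tiers with no overlap between them: WT DP with OE SP, then WT SP, then KO DP. Its log2 change in WT SP against WT DP was 0.88 ± 0.15 (limma adjusted p = 0.00298), where other regions within 1 Mb had a median of 0.12. Without the second WT DP library the adjusted p was 0.0568. Rps16, a small-subunit protein, rose at the region inside the gene near its other end (chr7:28351809-28352209), with 73.8 and 79.0 (WT DP), 115 and 127 (WT SP), 68.0 and 54.7 (KO DP) and 139 and 124 (OE SP). The WT SP and OE SP libraries all lay above the DP libraries, the log2 change being 0.63 ± 0.19 (limma adjusted p = 0.0451), and 10 of 12 alternative settings no longer called it, among them leaving out any 1 of the 4 libraries.

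A fit of the 2 groups alone, which rests on 2 residual degrees of freedom and leaves out the OE SP pair, called 77 of the regions (76 rose, 1 fell) beside 37.8% of all regions tested.

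The second comparison sets the Etv2 knockout line against the wild-type line in PDGFRalpha+FLK1+ cells. The set as a whole hardly moved: the median log2 change was -0.03 (0.98-fold), 53 of 111 regions lay above 0, and the median of all gene ends was -0.15 and of all regions -0.07. In 36 regions both KO DP libraries lay above both WT DP libraries and in 42 below, against 23.5% and 34.4% of all regions. With limma, 2 regions rose and 1 fell, beside 3.92% of all regions called (1.72% higher, 2.21% lower). The median was 0.04 to 0.08 with the 3 rescalings and 0.06 with edgeR and with DESeq2 on recovered reads, so its sign depended on the scaling. The set stood above all gene ends by 0.12 on the deposited scale and by 0.12 to 0.15 with the rescalings.

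Rps23rg1 rose by 1.62 ± 0.15 on the log2 scale (limma adjusted p = 9.67e-05), from 191 ± 6.55 to 600.4 ± 35.6 normalized reads (SD, n = 2), and was called under all 14 alternative settings. Rpl13, a large-subunit protein, rose at its other end (chr8:123105835-123106235), which had 151 and 168 (WT DP), 177 and 197 (WT SP), 398 and 358 (KO DP) and 123 and 214 (OE SP). Both KO DP libraries lay above all 6 others there, and the log2 change was 1.22 ± 0.23 (limma adjusted p = 0.0114). The start of Rpl13 had 405 and 438 (WT DP), 559.8 and 519 (WT SP), 617 and 553 (KO DP) and 384 and 639.8 (OE SP). Its log2 change of 0.47 ± 0.21 did not pass (limma adjusted p = 0.238).

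Rps6, the small-subunit protein phosphorylated by the S6 kinases, was the region that fell. Its start (chr4:86857221-86857621) had 774 and 843 (WT DP), 983 and 1005 (WT SP), 443 and 425 (KO DP) and 857 and 1099.7 (OE SP). The KO DP libraries are the lowest of the 8 by a wide margin, the log2 change being -0.89 ± 0.15 (limma adjusted p = 0.00727). The other end of Rps6 had 164 and 168 (WT DP), 230.0 and 177 (WT SP), 108 and 109 (KO DP) and 129.8 and 233 (OE SP). It lay lower in KO DP too, without passing (change -0.59 ± 0.24, limma adjusted p = 0.206). Other regions within 1 Mb of the Rps6 start had a median change of -0.56, and over chromosome 4 from 85 to 105 Mb, a stretch chosen after its values were seen, 1356 regions had a median of -0.60, of which 274 fell and 5 rose. The calls at Rps6 and at the other end of Rpl13 were lost when any 1 of the 4 libraries was left out, which leaves that group with 1 library assumed to vary like the others, with adjusted p up to 0.152 and 0.163.

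Both regions that rose lie on chromosome 8. The 9599 regions of the chromosome tested had a median of 0.13, of which 449 rose and 235 fell. Neighbouring regions within 1 Mb had medians of 0.21 at Rps23rg1 and 0.13 at Rpl13. Whether the number of copies of these stretches differs between the lines was not tested.

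**Figure D4:**
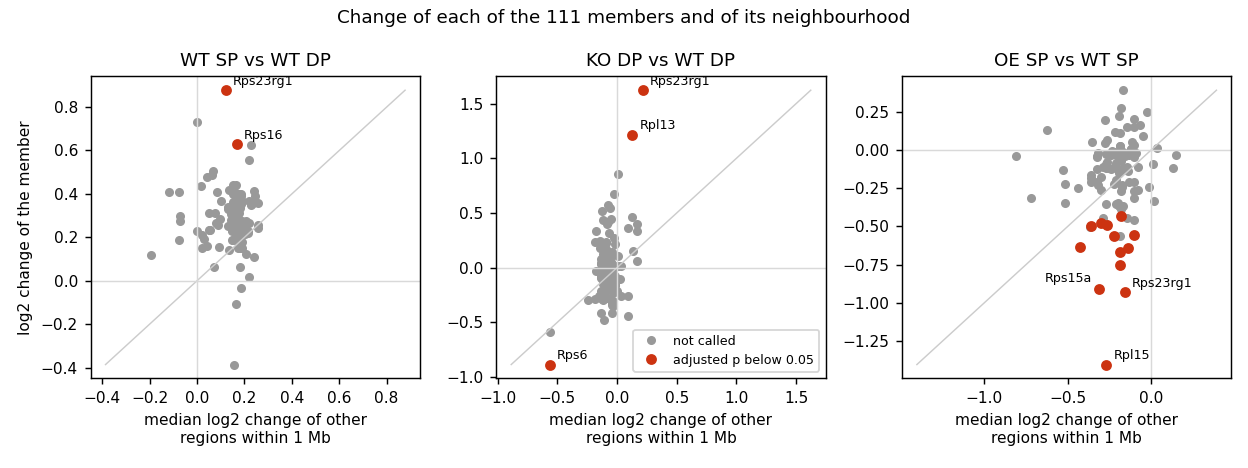
Log2 change of each of the 111 regions against the median log2 change of the other regions within 1 Mb, for each comparison; the diagonal marks equality and red points passed the test. In the knockout comparison Rps6 at -0.89 lies beside a neighbourhood at -0.56, and Rps23rg1 at 1.62 and Rpl13 at 1.22 lie far above neighbourhoods at 0.21 and 0.13.

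The number of calls in the knockout comparison moved with the method. It was 5 (4 rose, 1 fell) with median-of-ratios factors, where 4.88% of all regions were called, and likewise with edgeR, at 3.78%. It was 12 (11 rose, 1 fell) with quantile normalization and on the 10000 highest regions, at 6.85% and 6.01%. A fit of the 2 groups alone called 28 (15 rose, 13 fell), beside 22% of all regions.

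The third comparison sets the iETV2 line with doxycycline against the wild-type line in PDGFRalpha-FLK1+ cells, where 48.5% of all regions tested were called (16.6% higher, 31.9% lower). With limma, 13 of the 111 ribosomal protein regions fell and 0 rose. At an unadjusted p below 0.05 there were 16 lower and 1 higher, beside 60205 lower and 31581 higher of all 167573 regions tested. The median log2 change was -0.12 (0.92-fold), against -0.16 at all gene ends and -0.22 over all regions. Both OE SP libraries lay below both WT SP libraries in 31 regions and above in 3, against 46.1% and 26% of all regions, and in the other 77 the groups overlapped.

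The direction of the set in this comparison rested on 1 library and on the scaling. Without the first OE SP library the median was 0.09, with 14 regions called higher and 12 lower beside 52.8% of all regions. Without the second it was -0.35, with 68 lower and 0 higher beside 56.4%. Without the first and without the second WT SP library, 3 and 5 were called, all lower, beside 35.6% and 34.7%. The median was 0.12 with median-of-ratios factors (12 rose, 5 fell), 0.06 with quantile normalization (10 rose, 7 fell) and 0.05 on the 10000 highest regions (12 rose, 8 fell), beside 48.7%, 47.6% and 48.4% of all regions. A fit of the 2 groups alone called 4, all lower, beside 39% of all regions. Over all regions tested, the deposited scale gave 27777 rises and 53530 falls and median-of-ratios factors 39094 and 42486. The set's median lay above that of all gene ends by 0.04 on the deposited scale and by 0.04 to 0.05 with the rescalings, and below it by 0.06 without the second OE SP library.

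The 3 falls called under all 12 alternatives were at Rpl15, Rps15a and Rps23rg1. Rpl15, a large-subunit protein, has a low region 898 bp from its annotated start and outside the gene (chr14:18271684-18272084, also near an end of Nkiras1). That region had 43.7 and 68.3 (WT DP), 103 and 86.2 (WT SP), 37.8 and 40.4 (KO DP) and 35.0 and 30.2 (OE SP). The OE SP libraries were the lowest of the 8, with a log2 change of -1.40 ± 0.24 (limma adjusted p = 4.87e-04). Rps15a, a small-subunit protein, fell at the region inside the gene near its other end (chr7:118104606-118105006), which had 178 and 181 (WT DP), 242 and 248 (WT SP), 140.2 and 141 (KO DP) and 104 and 158 (OE SP). The WT SP libraries were the highest there, and the change was -0.91 ± 0.20 (limma adjusted p = 0.00239). Rps23rg1 changed by -0.93 ± 0.15 (limma adjusted p = 3.42e-04), which left it near the level of WT DP.

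Falls at Rps18, Rpl38, Rpl7, Rpl19, Rpl5 and Rpl32 were each lost under 3 to 7 of 12 alternatives, in 5 of these genes without the first and without the second WT SP library, for Rpl38 without the first, and for Rpl32 also without the first OE SP library. The lead region of Rps18 had 1288 and 1197 (WT DP), 1505 and 1491 (WT SP), 1554 and 1347 (KO DP) and 771 and 1154 (OE SP), with a change of -0.66 ± 0.18 (limma adjusted p = 0.00798). Both OE SP libraries lay below the other 6 in that region, which also lies within 1 kb of an end of B3galt4. Rpl38, a large-subunit protein needed for translation of some Hox messages, had 127 and 133 (WT DP), 194 and 172 (WT SP), 123 and 93.9 (KO DP) and 112 and 121 (OE SP) at its other end, a change of -0.63 ± 0.19. The changes at Rpl7, Rpl19, Rpl5 and Rpl32, all of the large subunit, were -0.48, -0.49, -0.75 and -0.56. The last 2 are at regions with means of only 48.2 and 131 normalized reads. The Rpl19, Rpl5 and Rpl32 regions also lie within 1 kb of an end of Cacnb1, Dipk1a and Cand2, in that order. Of the 26 regions with another gene end within 1 kb, 6 fell (23.1%), and of the 85 without, 7 fell (8.24%), beside 31.9% of all regions. A further 3 falls lie outside the rule for named genes and were named after their values were seen: the other end of Rpsa (-0.64), the other end of Rpl11 (-0.50) and a region of Rpl18 near Fam83e (-0.43).

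By subunit, the large-subunit regions had median log2 changes of 0.26, -0.03 and -0.19 in the 3 comparisons in the order above, and the small-subunit regions 0.30, 0.01 and -0.05. In OE SP against WT SP, 8 of 59 large-subunit and 5 of 42 small-subunit regions fell, beside 31.9% of all regions. The stalk regions had medians of 0.37, -0.00 and -0.22 and the paralogs 0.20, -0.15 and -0.09, over 4 regions each. The 5 regions of chromosome X had 0.36, 0.05 and -0.13. The small-subunit values include Rps23rg1, placed there by its symbol alone. Whether the subunits differed was not tested.

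The 2 ends of the genes parted in the lines with altered Etv2. This split was noticed in the values and no test of it was planned; with 2 libraries against 2, an exact permutation test cannot reach 0.05. The median level at the 27 other ends minus that at the 56 starts was 0.02 and 0.02 (WT DP) and 0.00 and 0.05 (WT SP), but 0.25 and 0.24 (KO DP) and -0.22 and -0.16 (OE SP). With a mean of at least 100 required, which leaves 23 other ends and 55 starts, it was 0.24 and 0.21 (KO DP) and -0.22 and -0.16 (OE SP). Over all protein-coding genes with such regions (692 other ends and 9015 starts) it was 0.05 and 0.03 (WT DP), -0.07 and -0.01 (WT SP), 0.11 and 0.12 (KO DP) and -0.09 and -0.10 (OE SP), so KO DP was again highest and OE SP lowest. Without that limit the order over all genes was not the same: WT SP stood at -0.15 and -0.07 and OE SP at -0.01 and -0.12, and these overlapped. With only the regions that have no other gene end within 1 kb, chosen after seeing the data, it was 0.23 and 0.18 (KO DP) and -0.20 and -0.13 (OE SP).

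**Figure D5:**
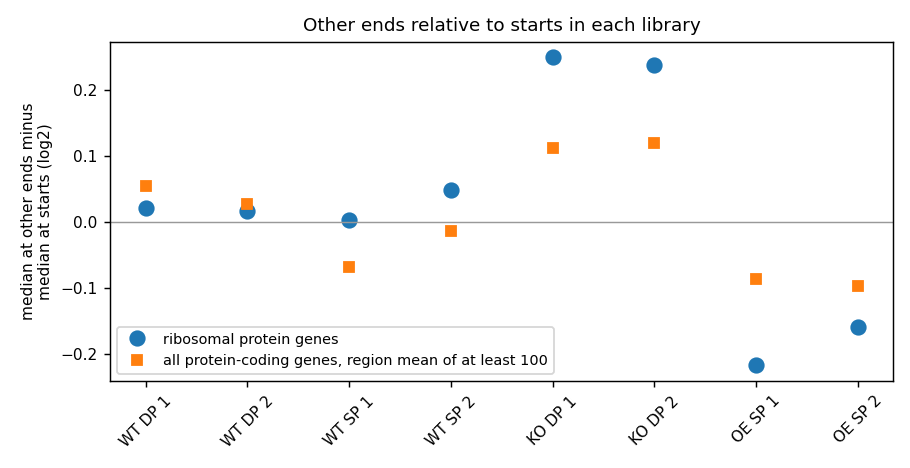
For each library, the median log2 level (each region relative to its 8-library mean) at the other ends minus that at the annotated starts, for the ribosomal protein genes (circles) and for all protein-coding genes with a region mean of at least 100 (squares). The circles stand at 0.25 and 0.24 in KO DP, at -0.22 and -0.16 in OE SP and between 0.00 and 0.05 in the wild-type libraries.

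In the calls the starts and other ends differed in OE SP, where few starts fell, and not in KO DP. In KO DP against WT DP, 1 of the 27 other ends rose and 0 fell, and 1 of the 56 starts rose and 1 fell. Of all regions, 1.72% rose and 2.21% fell there. In OE SP against WT SP, 7 of the 27 other ends fell (25.9%) and 2 of the 56 starts (3.57%), beside 31.9% of all regions. Among all genes with a region mean of at least 100 the shares that fell were 30.3% at the other end and 17.6% at a start. The ribosomal protein other ends thus fell no more often than other ends of all genes or than all regions. Their starts fell less often than starts of all genes. Of the 21 genes with a region at both ends, the other end gained on the start in KO DP in 16, with a median of 0.30, and lost to it in OE SP in 13, with a median of -0.15. In 12 of the 21 both KO DP libraries lay above both WT DP libraries in this difference, and in 3 below. Both OE SP libraries lay below both WT SP libraries in 10 and above in 2. The wild-type groups also parted in some genes, with WT SP above WT DP in 6 and below in 2. The same count over all protein-coding genes was not made, so these counts cannot be read as particular to ribosomal protein genes. For Rpsa the difference in log2 level between other end and start was -1.57 and -1.48 (WT DP), -0.80 and -1.01 (KO DP), -1.19 and -0.98 (WT SP) and -1.76 and -1.47 (OE SP). Rps15a showed the widest loss in OE SP, from -0.92 and -0.82 to -1.81 and -1.83. Rpl15 went the opposite way, by 0.92, since the low region 898 bp from its start fell. Other ends are lower than starts and so carry more counting error.

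When the ribosomal protein regions themselves set the scale, so that their median was equal in all libraries, the balance of calls over all regions shifted. In WT SP against WT DP there were 6682 rises and 23199 falls, in place of 10395 and 13600. For KO DP against WT DP there were 4700 and 5180, in place of 2881 and 3696. For OE SP against WT SP there were 32371 and 47852, in place of 27777 and 53530. The log2 factors for this ran from -0.17 to 0.27, with -0.17 and 0.27 in the 2 OE SP libraries.

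Values for other genes of translation are set beside these without a test between the lists, and of all regions 14.3% were called in the first comparison, 3.92% in the second, and 16.6% higher with 31.9% lower in the third. Mitochondrial ribosomal proteins (89 regions at 74 genes) had median log2 changes of 0.28, -0.09 and -0.10 in the 3 comparisons. There was 1 rise in WT SP, and there were 2 rises and 7 falls in OE SP. By limma 0 were called in KO DP, with 4 higher and 7 lower at an unadjusted p below 0.05, beside 12484 and 19991 of 167573. The 5 elongation factor genes (9 regions) had 0.31, -0.15 and -0.20, with 2 falls in OE SP, both at ends of Eef1d that other genes share. The 15 ribosome biogenesis genes (23 regions) had 0.25, -0.11 and -0.13: a region of Fbl, the nucleolar methyltransferase fibrillarin, rose in WT SP by 0.51 (limma adjusted p = 0.0433), and in OE SP regions of Wdr12 and of Ubtf, the activator of ribosomal RNA transcription, rose from 13.9 to 24.4 normalized reads in WT SP to 68.6 to 118 in OE SP, while a region shared by Nop56 and Idh3b fell. Of the ribosomal proteins with other symbols, 2 of 3 genes had regions (3 in all). A region between Rack1, a scaffold protein of the small subunit, and Trim41 had 243 and 227 normalized reads (WT DP) and 487 and 443 (KO DP), a log2 change of 0.97 ± 0.20 (limma adjusted p = 0.0215).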

How the data were processed

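Omni-ATAC libraries of 50000 sorted cells, read as 75 bp pairs, were used in 4 groups of 2, taken from the labels. The deposited table holds 1 signal value per region and library, called normalized counts by its name. The tools named by the submitters' processing notes are DiffBind 3.14.1, Bowtie2 and MACS2, and the build is mm10; the role of each tool is not recorded there. The normalization of the signal by the authors, peak pooling, Tn5 shift, duplicate and multi-mapping rules are not stated in the sources at hand, and a scaling set by reads in regions or by whole libraries would move the balance of rises and falls. In 7 columns each value was a whole number of steps of fixed size (100% within 0.01 reads), so whole reads were recovered there, 12477601 to 18853733 per library; for the second WT SP library this was not claimed.

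Genes and ends came from a RefSeq table of mm10 without strand, and strand, starts and sequences from the RefSeq promoter table. Tests used limma 3.58.1 (R 4.3.3), fitted to log2(value + 5), which understates changes of low regions, for 167573 regions (99.2%) with a mean of at least 10, in 1 fit of 4 groups (4 residual and 8.15 prior degrees of freedom, empirical Bayes trend), two-sided, with Benjamini-Hochberg adjustment over all regions and a threshold of 0.05. Values after ± are standard errors unless SD is written. The planned edgeR 4.0.16 and DESeq2 1.42.0 tests were run on the recovered reads for the knockout comparison only, because the other 2 need the second WT SP library. The scripts were tested on simulated data. In a simulated KO DP against WT DP comparison, 92 of 100 regions changed 2-fold were called, and 7 of 100 changed 1.41-fold. Of the unchanged regions 3 were called. The spread was set for the simulation and need not equal that of the libraries. A region not called may therefore still differ by a small amount.

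Named are called regions (above 10, those of lowest adjusted p), the 5 highest and 3 lowest lead regions, the 5 steadiest and 3 least steady, and a list chosen by role. Members and lists were chosen with earlier results of these data known. Some results under this rule are not reported here.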

Additional observations from a re-analysis of the deposited data

How the results depend on the processing

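Among the alternative values of the main counts, medians, levels and spreads, 93 stayed close and 38 moved. For WT SP against WT DP the number of ribosomal protein regions called, 2, became 1 with log2(value + 1), with median-of-ratios factors, with midpoints within 500 bp of an end and with 1 lead region per gene, 77 in a fit of the 2 groups alone, and 0 to 1 when 1 library was left out. Its median log2 change of 0.27 became 0.029 on the 10000 highest regions. For KO DP against WT DP the 3 calls became 5 with edgeR and with median-of-ratios factors, 12 with quantile normalization and on the 10000 highest regions, 28 in a fit of the 2 groups alone, and 1 without any 1 library (the same region, Rps23rg1). All regions called there numbered 10071 on the 10000 highest regions and 9880 when the ribosomal protein regions set the scale, against 6577. For OE SP against WT SP the 13 calls became 20 on the 10000 highest regions, 4 in a fit of the 2 groups alone, 5 within 500 bp, 5 with lead regions only, 7 without regions near another gene end (an alternative chosen after seeing the data) and 3 to 68 without 1 library. Its median of -0.12 became 0.12 with median-of-ratios factors, 0.06 with quantile normalization, 0.052 on the 10000 highest regions and -0.35 to 0.094 without 1 library. The range over libraries, 0.44, became 0.13 on the 10000 highest regions and 0.23 with quantile normalization. Rpl3l in OE SP against WT SP had a log2 change of -0.08, not called, which reversed to 0.31 without the first OE SP library (limma adjusted p = 0.013) and was -0.47 without the second (limma adjusted p = 1.4e-04). The cause of these shifts was not tested.

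Among the alternative values of regions called in the report, 135 stayed called and 51 did not, and among those of named regions not called, 1282 stayed so and 89 became called. Equal replicate numbers do not pair the samples here, since the correlations of their deviations ran from -0.0038 to 0.056. With the number as a replicate block the calls were 1, 3 and 11. Count tests for the comparisons with WT SP were not run. Other ends, with a median mean of 165 normalized reads, are less precise than starts at 423.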
